A study of Arabis alpina with 23 samples.

Results

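Young axillary buds and shoot apices of Arabis alpina were compared after 7 weeks of cold, the fourth and last stage that the study sampled. The comparison takes the 3 bud libraries (AB) and the 3 apex libraries (SAM) of that stage, 6 of the 23 libraries in all, and covers every gene with enough reads to test, 21414 of the 34220 in the table. All plants were of the Pajares accession, a perennial relative of Arabidopsis thaliana. They were grown in long days of 16 hours of light and 8 hours of dark at 24 °C by day and 18 °C by night, and the cold was given at 4 °C. Stage 1 plants were 4 weeks old, stage 2 plants were 8 weeks old, stage 3 plants had then spent 4 weeks in the cold, and stage 4 plants 7 weeks. A bud sample was a very young bud with a single leaf primordium, an apex sample the shoot apical meristem with 1 leaf primordium, and each library was made from RNA of 120 to 150 of them pooled. A library is therefore a mean over many plants and over all the cell types in the piece that was cut, and fewer cells of a type cannot be told apart from less RNA per cell. Each group held 3 libraries, except stage 1 buds with 2.

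An axillary bud forms in the axil of a leaf and carries its own meristem, which either stays dormant or grows out as a branch. TCP transcription factors of the CYC/TB1 class, together with auxin, strigolactone, cytokinin and abscisic acid signals, are known to set that choice. In A. alpina prolonged cold represses PEP1, the counterpart of the floral repressor Flowering Locus C, and the apex starts to flower while still in the cold, whereas axillary buds can stay vegetative or become branches, which keeps the plant perennial.

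Sequencing depth at stage 4 was 15.3 to 15.7 megareads of counted reads in the buds and 18.3 to 26.2 megareads in the apices, with apex replicate 1 at the top, and the other 17 libraries held 12.2 to 18.7 megareads. Levels are given below as CPM (counts per megaread of the library), with library sizes scaled by edgeR's TMM factors, and differences as log2 of bud over apex with a standard error (SE). A gene was called at an adjusted p under 0.05 in edgeR's quasi-likelihood test over all 23 libraries. Each SE comes from that same fit, not from the 6 libraries alone. Markers of several cell types were present in both tissues at stage 4. Summed over 10 genes of the shoot epidermis, levels were 3246 to 3513 CPM in buds and 2781 to 3004 CPM in apices. Over 17 vascular genes they were 131 to 140 and 138 to 144 CPM. The epidermis sums did not overlap, with buds higher, and the vascular sums did. None of these genes was called. Of 55 mesophyll genes, 7 were at 0 in all 6 libraries. Among the 46 tested, 1 was called higher (2.17%) and 3 lower (6.52%) in buds, against 1.35% and 2.12% of all tested genes. The sum over the 55 genes was 7622 to 8357 CPM in buds and 8992 to 11614 CPM in apices.

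In overall profile the stage 4 bud libraries lay nearer to the apices than to any earlier bud group. The distance between group means, as the root mean square log2 CPM difference over 18863 genes, was 0.347 from stage 4 buds to stage 4 apices and 0.448 to stage 3 apices, against 0.810 to stage 3 buds, 0.961 to stage 2 buds and 0.942 to stage 1 buds. The labels describe these libraries as buds like the earlier ones, and why they lie apart from the earlier buds was not tested. Every result below rests on these 3 bud libraries. Single pairs of libraries showed the same closeness. At stage 4 a bud and an apex library were 0.400 to 0.507 apart, 2 buds 0.326 to 0.396 and 2 apices 0.312 to 0.407, so the ranges touched. At stages 1, 2 and 3 a bud and an apex were 0.766 to 0.964, 0.792 to 0.890 and 0.767 to 1.06 apart, all beyond the largest distance within a group of those stages, 0.461.

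**Figure D1:**
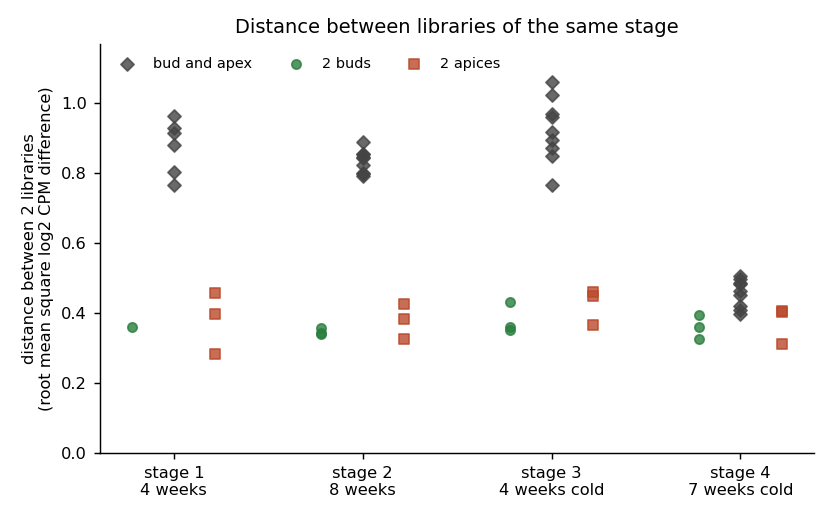
Distance between pairs of libraries of the same stage, as the root mean square difference in log2 CPM over 18863 genes (y axis, log2 units), for each stage (x axis). Grey diamonds are a bud with an apex, green circles 2 buds and red squares 2 apices. Only at stage 4 do the bud and apex pairs, at 0.400 to 0.507, reach down to the distances within a tissue.

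After 7 weeks of cold 743 genes differed between bud and apex, 3.47% of those tested. Of these, 290 (1.35%) were higher and 453 (2.12%) lower in buds. The same test called 7016 genes (32.8%) at stage 1, 8014 (37.4%) at stage 2 and 9460 (44.2%) at stage 3. The median absolute log2 difference over all tested genes was 0.13 at stage 4 and 0.27, 0.27 and 0.31 at stages 1 to 3. Replicates did not spread more at stage 4: the median SD of log2 CPM was 0.107 among stage 4 buds and 0.0988 among stage 4 apices, and 0.105 to 0.146 in the earlier groups. Most called differences were small. Of the genes called higher in buds, 102 were at least 2-fold and 40 at least 4-fold higher; of those called lower, 167 were at least 2-fold and 50 at least 4-fold lower. The bud and apex libraries did not overlap for 287 of the 290 higher and 452 of the 453 lower genes, while 5734 of all tested genes (26.8%) showed no overlap, called or not. The count rests on every library: leaving out 1 at a time gave 373 (without bud replicate 2) to 590 (without apex replicate 1) called genes, with 377 without bud replicate 1, 437 without apex replicate 2 and 383 without apex replicate 3. Bud replicate 1 was the highest bud for 184 of the 290 genes called higher (63.4%), against 35.1% of all tested genes. Apex replicate 3 was the highest apex for 216 of the 453 genes called lower (47.7%), against 33.4% of all tested genes.

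LFY, AP1 and SEP4, genes of floral meristem and organ identity, were lower in buds. LEAFY (LFY, Aa_G61540, chromosome 8:46457059-46459751, plus strand), the transcription factor that gives a meristem floral identity, was at 29.4, 41.5 and 40.0 CPM in the bud libraries and 112, 133 and 166 CPM in the apex libraries. All 3 buds lay below all 3 apices, by a log2 difference of -1.89 ± 0.16 (SE, n = 3 per group; adjusted p = 1.8e-06), 3.70-fold. Its mean was 1.34, 1.57 and 2.11 CPM in buds at stages 1 to 3 and 5.70, 6.18 and 19.8 CPM in apices, so that stage 4 buds stood above every earlier group of either tissue but below the stage 4 apex. The log2 difference between the tissues was -2.08, -1.97 and -3.24 at the earlier stages, and the stage 4 value did not differ from their mean by the test (difference 0.54, adjusted p = 0.067). LFY was the lower gene in buds at every stage, with both tissues highest after 7 weeks.

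APETALA1 (AP1, Aa_G283230, chromosome 2:23713656-23717789, minus strand), which acts beside LFY in the floral meristem and in sepals and petals, had no reads in any library of stages 1 to 3. At stage 4 it was at 2.20, 1.06 and 1.97 CPM in buds and 20.3, 29.9 and 51.3 CPM in apices, so both tissues had reads and the apices far more. The log2 difference was -4.27 ± 0.45 (adjusted p = 0.0035), 19.2-fold, although DESeq2 gave an adjusted p of 0.723. A MADS-box gene described as agl3 (Aa_G675730), known in Arabidopsis as SEPALLATA4, a partner of the floral organ factors, was at 3.20, 2.52 and 4.71 CPM in buds and 14.2, 15.7 and 28.8 CPM in apices, a difference of -2.48 ± 0.34 (adjusted p = 0.0021). It too was at 0 in all earlier bud libraries.

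These 3 were the called genes among the 8 tested in a list of floral meristem and organ identity genes, 37.5% of it against 2.12% of all tested genes called lower, and the list's median log2 difference was -3.35, against 0.00 over all tested genes. The other 5 did not pass. APETALA3 (Aa_G300500), a petal and stamen factor, was at 2.32, 0 and 0.0637 CPM in buds and 2.59, 6.87 and 43.0 CPM in apices (adjusted p = 0.19). PISTILLATA (Aa_G68100), its partner, was at 4.20, 5.84 and 9.30 CPM in buds and 9.85, 8.24 and 40.3 CPM in apices, and these overlapped (-1.59, adjusted p = 0.08). Apex replicate 3 was the highest of the 6 libraries for LFY, AP1, SEP4, AP3 and PI. A pair of SEPALLATA2 models, partners of the same organ factors, also had their highest value there, 16.7 CPM (Aa_G743960) and 5.30 CPM (Aa_G383480), against 0 to 0.815 CPM and 0 to 0.251 CPM in the buds (adjusted p = 0.089 and 0.12). APETALA2 (Aa_G575880) was at 115, 84.1 and 78.9 CPM in buds and 74.5, 88.9 and 73.9 CPM in apices (adjusted p = 0.32). With 1 library left out, 3 to 6 of the 8 were called lower, 6 without apex replicate 1. The median of the list leans on AP3 and the SEPALLATA2 models. These had few or no reads in most buds and had enough reads to test largely through the apices. A low value in buds was thus partly set in advance, and the median is no separate support.

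**Figure D2:**
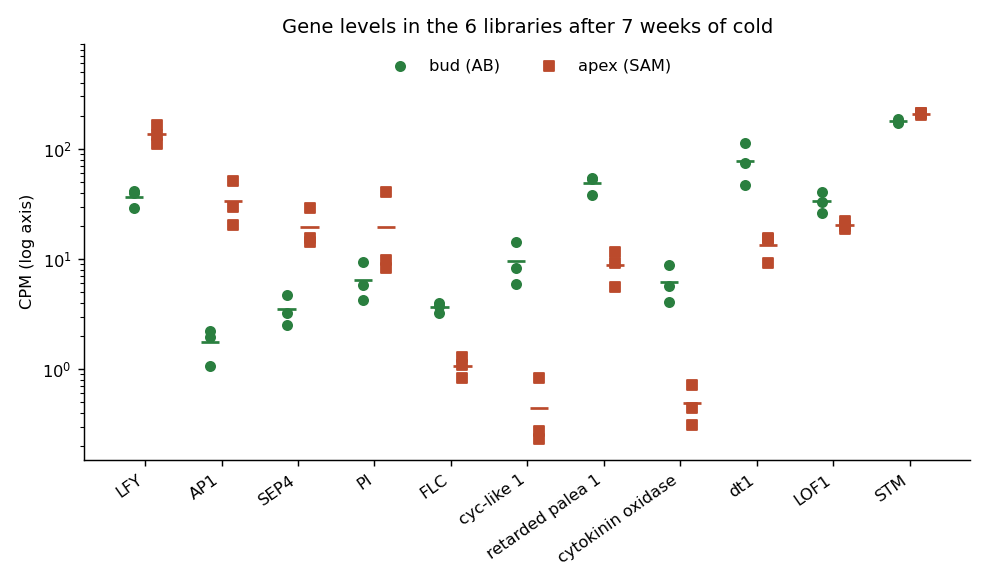
Levels of 11 genes in the 6 libraries after 7 weeks of cold, in CPM on a log axis (y), by gene (x). Green circles are buds, red squares apices and bars the mean of 3 libraries. LFY, AP1 and SEP4 are lower in all 3 buds; FLC, cyc-like 1, retarded palea 1, the cytokinin oxidase, dt1 and LOF1 are higher in all 3; PI overlaps, and STM lies close in both.

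Among the genes that time flowering, several repressors were higher in buds, and by less than the floral genes differed. The gene described as flowering locus c (FLC, Aa_G579940, chromosome 8:6184468-6185945, minus strand), whose product holds back flowering until cold silences it, was at 3.95, 3.72 and 3.25 CPM in buds and 1.27, 1.10 and 0.827 CPM in apices. No bud overlapped an apex, and the log2 difference was 1.74 ± 0.26 (adjusted p = 0.00048), 3.35-fold. The tissues had not differed by the test at stage 3 (log2 difference 0.27, adjusted p = 0.4), where the means were 3.10 CPM in buds and 2.51 CPM in apices, down from 14 and 16.4 CPM before the cold at stage 2. The stage 4 difference exceeded the mean of the earlier ones by 1.79 ± 0.29 (adjusted p = 0.0001), and 34.1% of all tested genes passed that test. The gene model is short, with 180 bases of coding sequence, only a piece of a MADS-box gene. Whether it is PEP1 is not given in the sources used here.

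A gene described as rap2-7 (Aa_G207710), the family of TOE1, an AP2-type repressor of flowering in Arabidopsis, was at 13.2, 10.03 and 9.49 CPM in buds and 5.87, 7.36 and 5.35 CPM in apices, a difference of 0.82 ± 0.14 (adjusted p = 0.0012). A second rap2-7 model (Aa_G234670) was higher in buds by 0.66 (adjusted p = 0.03), and Short Vegetative Phase (SVP, Aa_G311490), a MADS-box repressor of flowering, by 0.41 (adjusted p = 0.013). Not every repressor was higher there. A model described as maf3 (Aa_G720620), named after an FLC relative, was lower in buds, at 7.02, 5.64 and 4.46 CPM against 9.81, 12.6 and 7.39 CPM (-0.80 ± 0.16, adjusted p = 0.0064; 0.056 when the 6 libraries were fitted alone). Its call was lost without apex replicate 2.

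Of 60 tested genes in the flowering-time list 4 were called higher (6.67%) and 5 lower (8.33%) in buds, against 1.35% and 2.12% of all tested genes, and the median was 0.01. The others called lower were constans-like 9 (Aa_G102200, -0.88, adjusted p = 0.011), a constans-like B-box gene (Aa_G155580, -0.38, 0.016), and the squamosa promoter-binding-like genes SPL10 (Aa_G61880, -0.76, 0.015) and SPL11 (Aa_G61890, -0.26, 0.034), age-pathway factors that promote flowering. Leaving out 1 library gave 2 to 4 higher and 1 to 5 lower genes, with 2 of each without bud replicate 1, 2 higher and 1 lower without apex replicate 3, and 1 lower without bud replicate 2 or apex replicate 2. Integrators that promote flowering did not pass. SOC1 (Aa_G15970) was at 21.9, 22.6 and 21.7 CPM in buds and 19.8, 21.6 and 17.8 CPM in apices (0.16, adjusted p = 0.71), and FRUITFULL (Aa_G862480) at 25.4, 38.6 and 42.9 CPM and 45.5, 40.6 and 44.1 CPM (-0.28, adjusted p = 0.75). SPL4 (Aa_G381970), a target of the age pathway, was at 26, 40.6 and 52 CPM in buds and 73.2, 65 and 71.9 CPM in apices, apart in every library but with a wide error (-0.82 ± 0.43, adjusted p = 0.36).

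A single gene of the TCP and cyc-like list was called higher in buds, at a level well under that of earlier buds. The gene described as cyc-like protein 1 (Aa_G395870, chromosome 2:23033049-23034155, minus strand), a TCP factor of the class that holds back bud outgrowth, was at 14.3, 8.37 and 5.92 CPM in buds and 0.232, 0.824 and 0.276 CPM in apices. Every bud was far above every apex (log2 difference 4.48 ± 0.47, adjusted p = 4.9e-05), 22.3-fold. Earlier buds had 79.4, 92.4 and 74.7 CPM, so the stage 4 mean was 12.8% of that at stage 3, while apices were under 1 CPM on average at every stage. The difference was 3.36 ± 0.84 log2 units smaller than the mean of the earlier stages (adjusted p = 0.0054; 0.09 without apex replicate 2). Of the 19 tested TCP and cyc-like genes 1 was called higher (5.26%) and 2 lower (10.5%), against 1.35% and 2.12% of all tested genes. Their median was 0.03. The lower ones, a tcp7-like gene (Aa_G104870, -0.63, adjusted p = 0.012) and a TCP-family gene (Aa_G303010, -0.45, 0.035), differed less. Neither was called without bud replicate 2 or apex replicate 2, nor the latter without any other library.

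Both further TCP-class genes that the description column names otherwise were higher in buds as well; they were chosen after their values were seen. Retarded palea 1 (Aa_G104730), named after a rice gene, was at 54.8, 53.3 and 37.8 CPM in buds and 9.23, 11.5 and 5.52 CPM in apices (2.47 ± 0.29, adjusted p = 0.00017). A model described as cycloidea (Aa_G630990) was at 7.15, 8.83 and 8.22 CPM and 1.81, 2.75 and 3.31 CPM (1.63 ± 0.36, adjusted p = 0.017; 0.075, 0.078 and 0.055 without bud replicate 2, apex replicate 1 and apex replicate 2). The buds did not overlap the apices for either gene.

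The gene described as dt1 (Aa_G789610, chromosome 8:1968430-1969541, minus strand), named after a soybean Terminal Flower 1 homologue that keeps shoots vegetative, was at 114, 73.8 and 47.5 CPM in buds and 15.1, 15.5 and 9.21 CPM in apices. The lowest bud was above the highest apex, and the log2 difference was 2.55 ± 0.29 (adjusted p = 0.00013; 0.0505 in the 6 libraries fitted alone). Its level was 452, 471 and 472 CPM in earlier buds and 103, 88.0 and 37.4 CPM in earlier apices. Both tissues stood lower at stage 4, and the difference between them was close to that of the earlier stages (change of -0.18, adjusted p = 0.72). The gene described as Terminal Flower 1 itself (Aa_G63210) had too few reads to test.

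Cytokinin genes that were called were all higher in buds. A cytokinin oxidase (Aa_G188410, chromosome 4:48172315-48174414, plus strand), an enzyme that breaks cytokinin down, was at 8.84, 5.64 and 4.08 CPM in buds and 0.309, 0.714 and 0.441 CPM in apices (3.70 ± 0.43, adjusted p = 0.00012), 13-fold. Like cyc-like protein 1 it stood far below its own earlier level: earlier buds had 84.1, 84.0 and 42.8 CPM, stage 4 buds 14.5% of the stage 3 mean, and the difference was 2.79 ± 0.66 log2 units smaller than before (adjusted p = 0.0037). The other called genes were type-A response regulators, which cytokinin induces and which damp its signal. One (Aa_G238700) was at 8.34, 5.64 and 4.97 CPM in buds and 2.05, 2.36 and 2.76 CPM in apices (1.42 ± 0.31, adjusted p = 0.015), ARR5 (Aa_G762130) was higher by 0.70 (0.03) and a further one (Aa_G477060) by 0.99 (0.035).

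Of 32 tested cytokinin genes these 4 were the ones called, 12.5% against 1.35% of all tested genes called higher. The median was 0.09. The response regulators were called by a narrow margin. Without 1 library the count was 1 to 4, with 1 left without bud replicate 1, apex replicate 1 or apex replicate 2 and 2 without bud replicate 2. The differences of ARR5 had been -1.10, -1.39 and 0.22 at stages 1 to 3. A second ARR5 model (Aa_G561390) and ARR6 (Aa_G406250) did not pass (0.63, adjusted p = 0.25; 0.98, adjusted p = 0.065). A second cytokinin oxidase (Aa_G198500) did not differ by the test (-0.28, adjusted p = 0.59).

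Gibberellin oxidases of 3 kinds were higher in buds, those that make the active hormone as well as one that removes it. A gibberellin 20-oxidase (Aa_G598100), a synthesis enzyme, was at 6.52, 4.71 and 2.93 CPM in buds and 0.502, 0.989 and 1.10 CPM in apices (2.49 ± 0.42, adjusted p = 0.0018). A gibberellin 3-oxidase (Aa_G408940), which makes the last synthesis step, was at 3.83, 3.32 and 3.25 CPM and 1.20, 1.70 and 0.772 CPM (1.497, adjusted p = 0.042; 0.052 with the replicate block, and 0.078 to 0.19 in the 5 fits without 1 library that lost the call). A gibberellin 2-oxidase (Aa_G418770), which inactivates the hormone, was at 5.14, 2.92 and 2.87 CPM and 1.27, 1.10 and 1.21 CPM (1.60, adjusted p = 0.023; 0.065 to 0.15 without bud replicate 1 or any 1 apex). The buds lay above the apices for all 3 genes. They were the called ones of 21 tested, all higher, 14.3% against 1.35% of all tested genes, with a median of -0.03. Only 1 was left without bud replicate 1, apex replicate 1 or apex replicate 3.

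A second gibberellin 2-oxidase (Aa_G655020), GA2OX in the plot by stage, had been among the clearest bud genes before and was not called at stage 4. It was at 43.5, 42.6 and 34.3 CPM in buds and 32.7, 33.1 and 31.9 CPM in apices (0.30, adjusted p = 0.57). Its difference had been 4.99, 5.39 and 2.90 at stages 1 to 3, and the change from their mean was -4.12 ± 0.29 (adjusted p = 6.1e-08). The lowest bud was still above the highest apex, by little.

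Among cytochrome P450 genes, enzymes of hormone and secondary metabolism, a pair of brassinosteroid synthesis enzymes was higher in buds. Cytochrome P450 90B1 (Aa_G746970), the step known in Arabidopsis as DWF4, was at 83.4, 88.3 and 68.7 CPM in buds and 41.0, 46.5 and 46.8 CPM in apices (0.84 ± 0.12, adjusted p = 0.0004), and P450 90A1 (Aa_G526550), known as CPD, at 41.9, 44.3 and 40.4 CPM and 24.1, 20.4 and 23.7 CPM (0.89 ± 0.16, adjusted p = 0.0028). Buds and apices did not overlap for either. The earlier differences were 0.87, 0.86 and 1.23 for the former and 1.15, 1.10 and 1.61 for the latter. The third P450 called higher (Aa_G207870), described as a probable teasterone-converting enzyme of the same pathway and chosen after its values were seen, had 1, 1 and 5 reads in the bud libraries and 0 in the apices, at least 3.17-fold higher against a floor of 3 reads over the apex group (adjusted p = 0.045). No fit that left out a library called it. Of the 130 tested P450 genes 3 were called higher and 2 lower, 3.85% in all, near the 3.47% of all tested genes.

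Abscisic acid genes were called higher in 4 of 24 tested (16.7%) and lower in 1 (4.17%), against 1.35% and 2.12% of all tested genes. The receptor PYL8 (Aa_G94220) was at 10.7, 7.97 and 7.20 CPM in buds and 5.29, 5.49 and 3.97 CPM in apices (0.80 ± 0.16, adjusted p = 0.0066), and a gene described as abscisic acid insensitive (Aa_G282200) was higher by 0.84 (0.033). The one lower gene was an abscisic acid 8'-hydroxylase (Aa_G357050), which breaks the hormone down (-1.34, adjusted p = 0.043). These calls were fragile: 0 of the 24 were called higher without bud replicate 1 or without apex replicate 3, and 1 to 2 without any other library.

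Of 128 tested auxin genes 3 were called higher and 6 lower, 7.03% in all against 3.47% of all tested genes, with a median of -0.05. An auxin-conjugating synthetase (Aa_G432960), a GH3 enzyme that ties auxin to amino acids, was higher in buds at 314, 310.3 and 180.3 CPM against 135, 152 and 131 CPM (0.95 ± 0.17, adjusted p = 0.0031; 0.12 in the 6 libraries alone). An auxin efflux carrier-like gene (Aa_G111050), of the family that moves auxin out of cells, was lower at 6.59, 5.45 and 6.50 CPM against 17.3, 15.3 and 21.6 CPM (-1.55 ± 0.23, adjusted p = 0.00051). IAA33 (Aa_G607630), an Aux/IAA-family gene, was lower at 0.188, 0.133 and 0.0637 CPM against 1.16, 1.21 and 1.16 CPM (-3.12 ± 0.47, adjusted p = 0.00058). The 3 genes showed no overlap between the tissues.

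The stem cell genes themselves did not differ by the test, while receptor kinases of the CLAVATA type were lower in buds. A gene described as clavata1 (Aa_G590900), a leucine-rich repeat kinase of the family that restricts the stem cell pool, was at 31.2, 29.6 and 31.8 CPM in buds and 52.5, 59.4 and 59.7 CPM in apices (-0.89 ± 0.09, adjusted p = 7.8e-06). A second (Aa_G201460) was at 37.9, 33.3 and 28.9 CPM in buds and 62.8, 64.9 and 78.4 CPM in apices (-1.04 ± 0.16, adjusted p = 0.00066). Both were apart in every library and kept their call in every alternative run. The former had not been lower in buds before (0.34, 0.09 and 0.08 at stages 1 to 3), and its stage 4 difference was lower than their mean by 1.06 log2 units (adjusted p = 3.1e-07). CORYNE (Aa_G19540), a kinase of the CLAVATA3 pathway that was chosen after its values were seen, was lower by -0.38 (adjusted p = 0.003).

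WUSCHEL (Aa_G197460), the factor that maintains stem cells, was at 6.84, 8.17 and 7.13 CPM in buds and 6.10, 6.43 and 6.51 CPM in apices (0.22, adjusted p = 0.78). Shoot Meristemless (STM, Aa_G408930), which keeps meristem cells undifferentiated, was at 171, 188 and 176 CPM in buds and 214, 203 and 212 CPM in apices (-0.23, adjusted p = 0.32), with all buds below all apices and earlier differences of -0.29, -0.28 and -0.28. CLAVATA3 (Aa_G155810), the stem cell peptide, had a difference of 0.60 (adjusted p = 0.58). Of 33 tested meristem genes 3 were called, all lower (9.09%, against 2.12% of all tested genes). They were both clavata1 models and a WUSCHEL-related homeobox 13-like gene (Aa_G426430, -0.58, adjusted p = 0.011; 0.056, 0.086 and 0.054 without bud replicate 1, bud replicate 2 and apex replicate 3). The median was 0.06.

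Boundary genes, which separate organs and mark where axillary meristems form, were called in 2 of 20 tested, both higher (10%, against 1.35% of all tested genes). Their median was 0.39, against 0.76, 0.69 and 0.46 at stages 1 to 3. LOF1 (described as MYB117, Aa_G254960), a boundary MYB factor needed for accessory meristems in Arabidopsis, was at 41.0, 32.9 and 26.3 CPM in buds and 22, 19.9 and 18.9 CPM in apices (0.72 ± 0.13, adjusted p = 0.0028). A LOB-domain gene (Aa_G153260) was called too (1.12, adjusted p = 0.035), but its libraries overlapped and 7 of 15 alternatives lost it, with an adjusted p of 0.19 without bud replicate 1. A single gene of the list was called without bud replicate 1, bud replicate 2 or apex replicate 1. Lateral Organ Boundaries (LOB, Aa_G320940), which had been higher in buds by 4.38, 3.50 and 4.36, was at 5.39, 4.98 and 3.12 CPM in buds and 1.97, 1.81 and 3.64 CPM in apices and overlapped (0.88, adjusted p = 0.082). Lateral Suppressor (Aa_G193190, 0.78, adjusted p = 0.063), CUC2 (Aa_G141220, -0.39, 0.26) and RAX1 (Aa_G583140, 0.26, 0.7), known for starting axillary meristems, did not pass.

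One of a pair of homeodomain genes passed the test. It (Aa_G223150) was at 12.1, 7.37 and 6.24 CPM in buds and 2.51, 2.25 and 2.10 CPM in apices, and was called (1.90 ± 0.23, adjusted p = 9.4e-05). The other (Aa_G147020) had differed by 9.72, 9.17 and 7.32 log2 units at stages 1 to 3. At stage 4 it was at 7.28, 9.63 and 5.54 CPM in buds and 1.12, 3.13 and 3.31 CPM in apices, apart in every library but not called (1.62, adjusted p = 0.055), and its difference was 7.12 log2 units below the earlier mean.

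The dormancy-associated genes were not called at stage 4. DRM1 (Aa_G438760), whose transcript is a usual mark of dormant buds, was at 246, 238 and 196 CPM in buds and 233, 282 and 221 CPM in apices (-0.12 ± 0.46, adjusted p = 0.94), after differences of 3.97, 3.03 and 1.61 at stages 1 to 3. A second DRM1 model (Aa_G430660) was at 29.9, 30.2 and 40.1 CPM in buds and 63.4, 86.7 and 94.5 CPM in apices, lower in every bud (-1.28 ± 0.44, adjusted p = 0.14), after differences of 2.15, 2.18 and 2.22. The changes from the earlier mean, -2.99 and -3.47, both passed the test. Of the 4 tested genes of the list edgeR over all libraries and DESeq2 called 0, with 1 at an unadjusted p under 0.05, and edgeR on the 6 libraries alone called 1, lower in buds. The median was -0.15 against 1.36, 1.38 and 1.39 before.

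**Figure D3:**
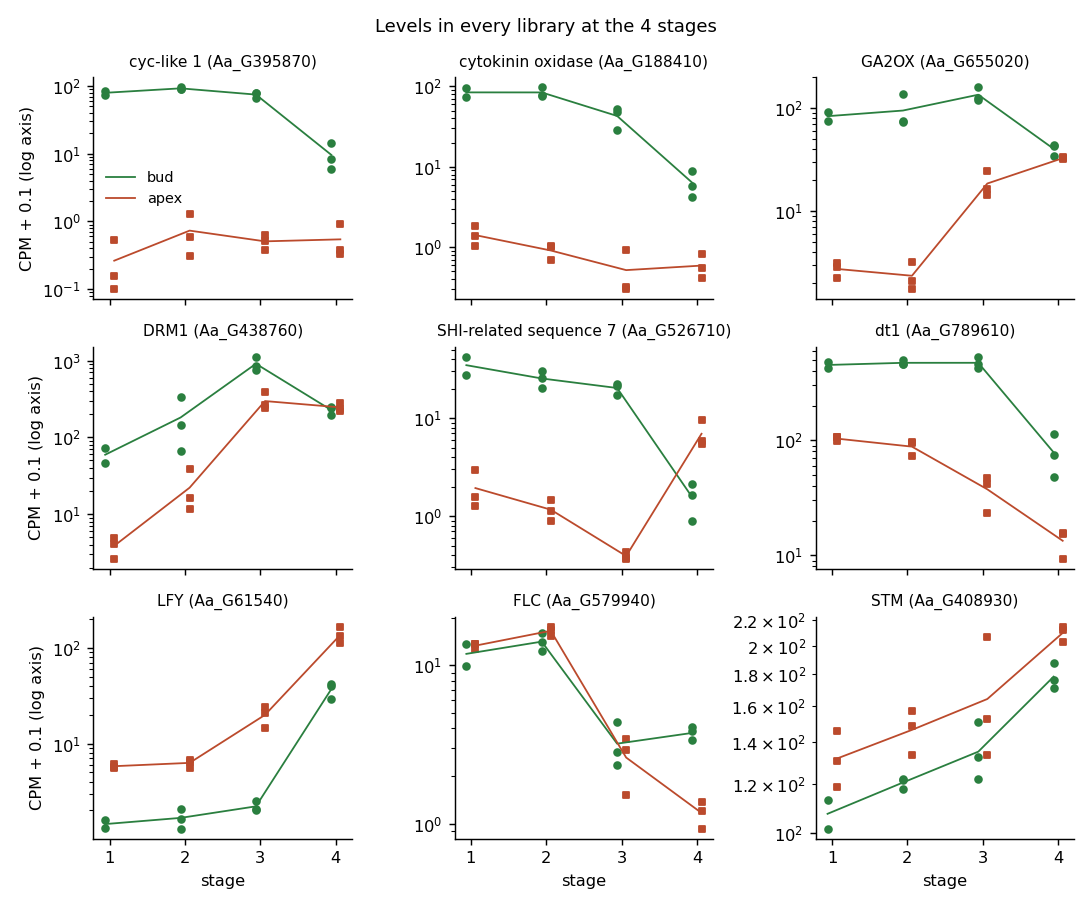
Levels of 9 genes in all 23 libraries by stage (x axis; 1 and 2 before cold, 3 after 4 weeks and 4 after 7 weeks of cold), in CPM plus 0.1 on a log axis (y, a separate range in each panel). Points are libraries and lines join group means, buds in green and apices in red. The bud lines of cyc-like 1, cytokinin oxidase, dt1 and SHI-related sequence 7 lie far lower at stage 4 than at stage 3, GA2OX and DRM1 meet the apex line there, LFY is highest there in both tissues, and FLC parts between the tissues only there.

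Across the genome most of the differences of the earlier stages were not found at stage 4. Of 2364 genes called higher in buds at all of stages 1 to 3, 94 were called higher at stage 4, 68 were called lower and 2202 were not called. Their median difference was 1.53, 1.34 and 1.40 at stages 1 to 3 and -0.02 at stage 4, with 45.8% of them above 0. Relative to the mean apex of stages 1 to 3, these genes had a median level of 1.40, 1.51 and 1.26 log2 units in buds at stages 1 to 3 and 0.07 in buds at stage 4, where the 3 libraries ranged from 0.02 to 0.16. The stage 4 apex was at 0.08, so the median of these genes in buds was at that of the apex. Of 1543 genes called lower in buds at all 3 stages, 106 were called lower at stage 4, 15 higher and 1422 were not called. Their medians were -0.46, -0.45 and -0.47 and then -0.03. Both sets of genes were picked by their calls at stages 1 to 3, so their differences there are large partly by selection.

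A test of the stage 4 difference against the mean of the other stages called 7311 genes (34.1%), and the stage 4 difference was the smaller one in size in 6089 of them (83.3%). In 1222 genes it was the larger one. That test uses the stage 4 libraries too. Of the 290 genes called higher at stage 4, 149 had also been called higher at stage 3, 34 had been called lower and 107 were not called there; 50 had been called at none of the earlier stages. Of the 453 called lower, 170 had been lower at stage 3, 116 higher and 167 were not called, and 83 had been called at none.

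**Figure D4:**
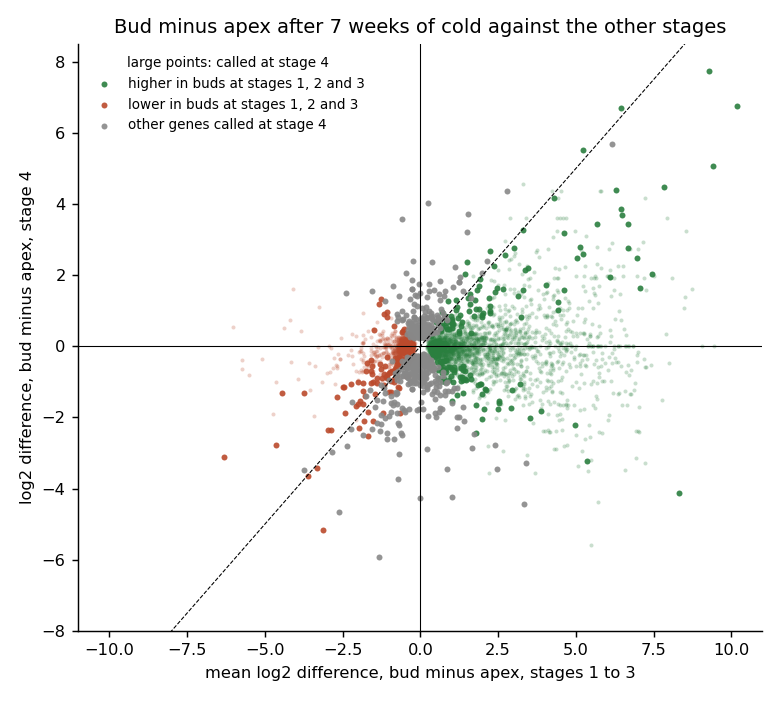
Log2 difference of bud minus apex at stage 4 (y axis) against the mean log2 difference of stages 1 to 3 (x axis), 1 point a gene. Green points are the 2364 genes higher in buds at all 3 earlier stages, red points the 1543 lower at all 3, grey points other genes called at stage 4, and large points are called at stage 4. The green cloud reaches far to the right but lies around 0 on the y axis, away from the dashed line of equal differences. Green and red genes were picked by their calls at the stages of the x axis.

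Some genes changed sides. SHI-related sequence 7 (Aa_G526710), of a family of zinc-finger factors that act in organ development and auxin synthesis, was at 2.01, 0.797 and 1.53 CPM in stage 4 buds and 5.29, 5.71 and 9.43 CPM in the apices (-2.22 ± 0.34, adjusted p = 0.00072). It had been higher in buds by 4.23, 4.56 and 6.09, with 34.5, 25.2 and 20.1 CPM there and 1.83, 1.06 and 0.292 CPM in apices, so the change was -7.17 ± 0.41 (adjusted p = 3.4e-09). A pectin methylesterase (Aa_G127780), which modifies cell wall pectin, was at 19.4, 16.8 and 17.5 CPM in buds and 47.0, 53.6 and 57.1 CPM in apices (-1.55 ± 0.23, adjusted p = 0.001) after differences of 1.06, 0.98 and 0.97. WRKY14 (Aa_G279730) was at 4.58, 3.65 and 4.40 CPM in buds and 10.6, 10.2 and 11.7 CPM in apices (-1.36 ± 0.18, adjusted p = 0.00013) after differences of 1.54, 1.47 and 0.52. In all 3 genes every stage 4 bud was below every stage 4 apex.

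The other genes clearly higher in buds were a varied set. Beta glucosidase 46 (Aa_G784430), of a family that cleaves sugar conjugates, was at 3.20, 1.20 and 0.446 CPM in buds, 76 reads in all, and had no read in any stage 4 apex. Against a floor of 3 reads over the apex group it was at least 34.4-fold higher in buds (adjusted p = 0.0013). A mechanosensitive ion channel gene (Aa_G112830) was at 19.3, 14.7 and 8.47 CPM in buds and 1.08, 1.26 and 0.827 CPM in apices (3.73 ± 0.42, adjusted p = 0.00013), more than the 0.27, 1.79 and 2.50 of earlier stages. An ACC oxidase (Aa_G739680), the enzyme of the last step to ethylene, was at 83.2, 51.3 and 34.7 CPM in buds and 3.67, 15.4 and 9.49 CPM in apices (2.61 ± 0.39, adjusted p = 0.0012; 0.11 in the 6 libraries alone). Another ACC oxidase (Aa_G519820) was lower in buds, at 2.70, 2.06 and 2.17 CPM against 4.67, 9.39 and 6.23 CPM (-1.53 ± 0.38, adjusted p = 0.031), and its call was lost without apex replicate 2 (0.15) and in 4 of the other 5 fits that left out a library. It was the 1 gene called of 33 tested (3.03%, against 2.12% of all tested genes called lower) in a list of ethylene synthesis and perception. That list does not hold the first ACC oxidase.

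Further down, nicotianamine synthase (Aa_G356880), which makes a metal chelator, was at 26.5, 11.8 and 8.47 CPM in buds and 3.90, 1.92 and 0.662 CPM in apices (2.76 ± 0.55, adjusted p = 0.0095; 0.058 without bud replicate 1 and 0.14 in the 6 libraries alone). The seed maturation protein LEA4 (Aa_G386370), of a class that protects cells in drying, was at 86.9, 79.1 and 50.3 CPM and 13.6, 26 and 13.2 CPM (2.04 ± 0.29, adjusted p = 0.00072; 0.063 in the 6 libraries alone). A MYB-family factor (Aa_G144270) was at 38.0, 28.2 and 23.2 CPM and 10.8, 12 and 12.3 CPM (1.35 ± 0.19, adjusted p = 0.00035). Bud replicate 1 was the highest of the 6 libraries for each of these 6 genes higher in buds and bud replicate 3 the lowest bud.

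The genes clearly lower in buds included some with few reads in the buds. A gene described as at1g76250-like (Aa_G87720) had 2 bud reads in all, 0.0627, 0 and 0.0637 CPM, against 3.36, 2.75 and 3.03 CPM in apices (adjusted p = 3.4e-05). Pectinesterase 47 (Aa_G303880) was at 1.44, 2.39 and 0.892 CPM in buds and 18.0, 18.5 and 14.5 CPM in apices (-3.43 ± 0.23, adjusted p = 4.6e-08), and had been lower in buds by 2.86, 3.58 and 3.51 log2 units at stages 1 to 3. A B3-family transcription factor gene (Aa_G20370) was at 5.39, 4.05 and 2.23 CPM in buds and 22.5, 39.8 and 93.1 CPM in apices (-3.73 ± 0.51, adjusted p = 0.0015; 0.085 in the 6 libraries alone). At stages 1 to 3 its means were at most 0.0352 CPM in buds and 0.252 CPM in apices, so, like AP1, it had almost no reads before, and apex replicate 3 was its highest library.

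Dof zinc-finger factors, a plant family with roles in vascular tissue, light and seed responses, were mostly on the lower side in buds. Of 22 tested, 8 were called lower and 1 higher, beside 2.12% and 1.35% of all tested genes, and the median was -0.51, against 0.00 over all and 0.17, -0.03 and 0.18 at stages 1 to 3. Aa_G248290 was at 2.38, 1.99 and 1.40 CPM in buds and 7.88, 7.96 and 9.05 CPM in apices (-2.10 ± 0.22, adjusted p = 9.8e-06), and Aa_G277430 at 36.3, 31.9 and 32.6 CPM and 58.7, 58.1 and 62.7 CPM (-0.83 ± 0.09, adjusted p = 1.6e-05). Aa_G197180 was lower too (-2.11, adjusted p = 8.8e-05), as at each earlier stage. Aa_G406280 was at 1.00, 0.398 and 0.828 CPM in buds and 2.82, 3.35 and 2.76 CPM in apices (-1.98, adjusted p = 0.001), though it had been higher in buds by 2.30 at stage 3. The description column gives all 9 the same words, so which Dof gene each is cannot be said. The 17 vascular marker genes, given above, had overlapping summed levels in the tissues. Leaving out 1 library gave 4 to 7 lower, 4 without bud replicate 2 and 5 without bud replicate 3, apex replicate 2 or apex replicate 3.

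Receptor kinases were called lower in 19 (8.56%) and higher in 5 (2.25%) of 222 tested, against 2.12% and 1.35% of all tested genes. Their median was -0.03. Besides the clavata1 models, a probably inactive receptor-like kinase (Aa_G688870) was lower by -1.80 ± 0.25 (adjusted p = 0.00027) and a leucine-rich repeat kinase (Aa_G166840) by -0.79 ± 0.10 (0.00014). The higher ones included ERL1 (Aa_G315930, 0.40, adjusted p = 0.0091), an ERECTA-family kinase of stomatal patterning, and the gene described as exs (Aa_G310760, 0.71, 0.0046). The stomatal lineage list summed to 64 to 73.1 CPM in buds and 57.5 to 63.2 CPM in apices. Of its 6 tested genes 1 was called higher (16.7%, against 1.35% of all tested genes), the peptide gene described as epidermal patterning factor-like 4 (Aa_G754120, 0.59, 0.0032). Leaving out 1 library gave 9 to 17 lower kinases, 9 without apex replicate 3, 10 without bud replicate 1 and 12 without bud replicate 2, and 1 to 5 higher ones, 1 without apex replicate 2, 2 without bud replicate 1 or apex replicate 1 and 3 without apex replicate 3.

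Photosystem and light-harvesting genes were called lower in 6 (10.9%) and higher in 1 (1.82%) of 55 tested, against 2.12% and 1.35% of all tested genes. Their median was -0.26, against -0.54, -0.36 and -0.30 at stages 1 to 3. The oxygen-evolving enhancer protein 3-1 (Aa_G37690), part of the water-splitting complex, was at 20.1, 22.8 and 24.3 CPM in buds and 37.4, 52.4 and 44.1 CPM in apices (-0.99 ± 0.15, adjusted p = 0.00065). Photosystem I subunit VI (Aa_G568100, -0.70, 0.00093) and Rubisco activase (Aa_G451120, -0.64, 0.0034) were lower as well. The 1 higher gene was called in no fit that left out a library. The summed level of the list was 8333 to 9110 CPM in buds and 12666 CPM in apex replicate 2, against 10348 and 9934 CPM in the other apices. These genes are largely the mesophyll markers given above, and the part of the leaf primordium in the difference was not tested.

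Of 91 tested heat shock proteins and factors 4 were called, all lower, 4.40% against 2.12% of all tested genes called lower and 3.47% called either way. A heat shock-like protein (Aa_G289470) was at 3.39, 3.65 and 1.91 CPM in buds and 12, 15.2 and 14.6 CPM in apices (-2.22 ± 0.26, adjusted p = 4.2e-05), and the heat stress factor A-4a-like gene (Aa_G148410), a regulator of the stress response, at 3.64, 2.92 and 1.97 CPM and 6.45, 6.37 and 5.96 CPM (-1.14 ± 0.22, adjusted p = 0.0045). A small heat shock protein (Aa_G49310, -2.43, adjusted p = 0.0061) lost its call without apex replicate 3 (0.054), where 2 of the list were left. Cell wall enzymes were mixed, 4 higher (2.80%) and 6 lower (4.20%) of 143, against 1.35% and 2.12% of all tested genes. The higher count was 2 without bud replicate 1 and 1 without apex replicate 2. Pectinesterase 53-like (Aa_G478110) was lower at 17.8, 16.3 and 16.8 CPM against 35.2, 36.1 and 36.5 CPM (-1.08 ± 0.12, adjusted p = 3.4e-05), and expansin A4 (Aa_G359280), which loosens walls, higher by 0.93 (0.042). A lipid-transfer protein (Aa_G384910) was at 686, 863 and 609 CPM in buds and 1648, 2099 and 1553 CPM in apices (-1.30 ± 0.17, adjusted p = 0.00017).

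Several groups in which many genes differed between bud and apex before had few or no calls at stage 4. Calls fell over all tested genes too, from 32.8%, 37.4% and 44.2% at stages 1 to 3 to 3.47% at stage 4. Of all 21414 tested genes, 3899, 4251 and 4726 had been called higher in buds and 3117, 3763 and 4734 lower. The fall in calls is therefore not particular to these groups. Of 31 tested SAUR genes, small auxin-induced genes linked to cell expansion, 24, 24 and 22 had been called higher in buds at stages 1 to 3, with medians of 3.98, 3.67 and 4.44. At stage 4 only a SAUR gene lower in buds was called (Aa_G752220, -2.45, adjusted p = 0.012), and the median was 0.00. Of 252 TIR-NBS-LRR immune receptor genes 133, 129 and 107 had been called higher, and at stage 4 1 was called higher and 2 lower. Core and linker histones, which S-phase cells make, had been lower in buds, in 14, 15 and 23 of 26 genes with medians of -0.30, -0.34 and -0.60, and edgeR over all libraries called 0 at stage 4 (median 0.04; 3 higher and 2 lower at an unadjusted p under 0.05). DESeq2 called 1 histone gene higher, and edgeR on the 6 libraries alone 3 higher and 1 lower. DNA replication genes, called lower in 20, 23 and 38 of 68 before, had medians of -0.17, -0.12 and -0.33 before and 0.06 at stage 4, where edgeR over all libraries and DESeq2 called 0, with 7 higher and 1 lower at an unadjusted p under 0.05, and edgeR on the 6 libraries alone called 3 higher. Of 230 cytosolic ribosomal protein genes 59, 40 and 151 had been called lower, and at stage 4 1 was called lower and 3 higher, with a median of 0.11. The latter count was 13 with DESeq2, 30 in the 6 libraries alone and 1 without bud replicate 2 or apex replicate 3.

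**Figure D5:**
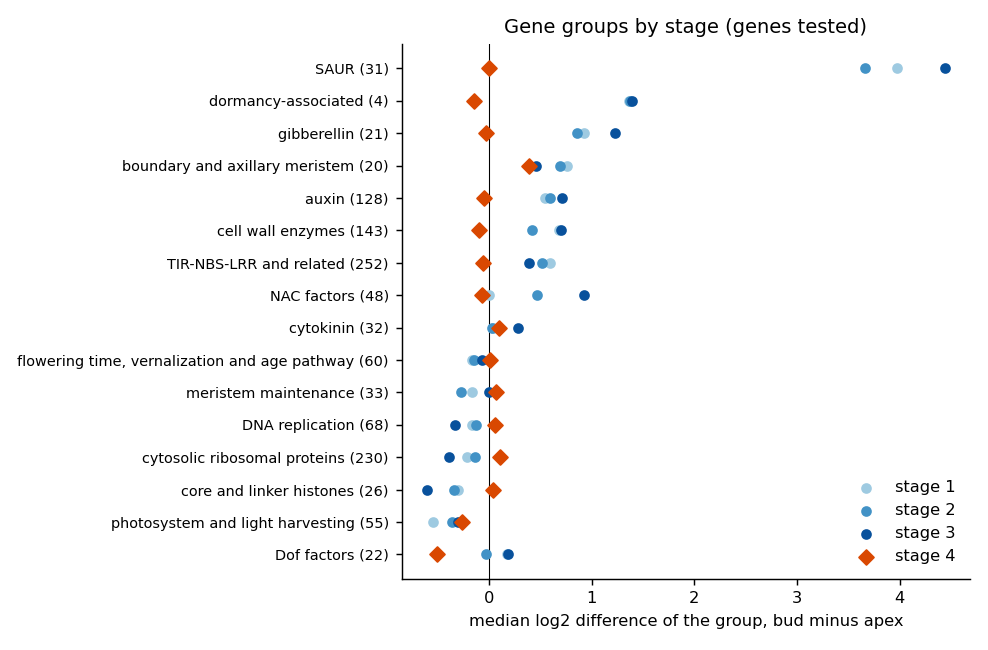
Median log2 difference of bud minus apex (x axis) over the tested genes of 16 groups (y axis, number tested in brackets), at stages 1 to 3 (blue circles, light to dark) and stage 4 (orange diamonds). The stage 4 medians lie between -0.51 for Dof factors and 0.39 for boundary genes, while SAUR genes reach from 3.67 to 4.44 before. At stage 4 the SAUR genes had few reads in either tissue.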

How the data were processed

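RNA-seq libraries were sequenced as single reads of 150 bases. The authors deposited a table with the count of mapped reads per gene model for each library, and those counts were used here. The same deposited table gives the authors' TPM values, used in alternatives only. The submitters' processing notes name FastQC; the aligner, counter and strand setting are not given in the sources used here. Per the file headers, models are version 4 proteins placed on assembly version 5, and coding lengths are multiples of 3 in 99.6% of them. Whether reads in untranslated regions were counted is not given. Near-identical copies may share reads, and 4750 models have more than 1 locus. A further 46 columns of normalized values per library were not used.

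Counts were fitted with edgeR 4.0.16 (R 4.3.3): TMM factors, filterByExpr (minimum count 10, minimum total 15), a mean for each of the 8 groups over all 23 libraries, robust quasi-likelihood F tests, and Benjamini-Hochberg adjustment over 21414 genes at 0.05. The fit shares one estimate of the spread across stages. Each SE is the absolute log2 difference divided by the square root of its F, so it carries that shared spread. The stage 4 difference was tested against the mean difference of stages 1 to 3 in the same fit. Scripts were tested on simulated data. Alternatives were DESeq2 1.42.0, limma 3.58.1 on log2(TPM + 1) and log2(TPM + 0.1), other scaling and filters, the 6 libraries alone, a replicate block and leaving out each library.

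The labels call replicates biological; pools of buds or apices are the units, and p-values measure the spread between pools. Genes named are the 12 largest called differences in each direction with no overlap of libraries, an informative description and a mean of at least 1 CPM in the higher group, up to 4 called genes per gene group by adjusted p, a fixed set of key genes, and the 8 genes with the smallest p in each direction against the other stages. Further called members of a group (such as SVP, SPL10, ERL1, expansin A4) were chosen after their values were seen. The gene groups and named sets were chosen with earlier results of these data known, so they are a description and no independent evidence.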

Additional observations from a re-analysis of the deposited data

Results flagged for a closer look

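The difference between bud and apex at stage 4 departed from its mean over stages 1 to 3 in 7311 genes by the edgeR test of that change, among them 105 of the 173 genes named and tested. Values are given below for 33 of these, those of the fixed set of key genes and of the genes with the smallest p for this change that had reads in every group. Each value is the log2 difference at stage 4 minus the mean log2 difference of stages 1 to 3. Groups of 3 libraries are too small for a check of single outlying libraries.

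Among bud genes of the earlier stages the change was negative for cyc-like protein 1 (Aa_G395870, -3.36), the cytokinin oxidase Aa_G188410 (-2.79), a type-A response regulator (Aa_G238700, -1.71), LOB (Aa_G320940, -3.20), the homeodomain gene Aa_G147020 (-7.12), WUSCHEL (Aa_G197460, -1.41), ARR5 (Aa_G561390, -1.06), GA2OX (Aa_G655020, -4.12), GASA4 (Aa_G321010, -1.79), a gibberellin-regulated peptide gene, and the DRM1 models Aa_G438760 (-2.99) and Aa_G430660 (-3.47). It was also negative for both clavata1 models, Aa_G590900 (-1.06) and Aa_G201460 (-0.71).

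The change was positive for FLC (Aa_G579940, 1.79), the meristem homeobox gene ATH1 (Aa_G58550, 1.30), Lateral Suppressor (Aa_G193190, 1.19) and the cytokinin oxidase Aa_G198500 (1.91). For ATH1, Lateral Suppressor and the cytokinin oxidase Aa_G198500 the difference at stage 4 itself was not called.

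Of the genes with the smallest p for this change, those with a negative value were SHI-related sequence 7 (Aa_G526710, -7.17), an endonuclease/exonuclease family gene (Aa_G13100, -4.18), pectinesterase 1 (Aa_G127790, -3.41), a plasma membrane proton pump, H+-ATPase 2 (Aa_G620370, -2.98), an inactive leucine-rich repeat kinase (Aa_G75260, -1.91), an NHL-domain gene (Aa_G189610, -1.89), a cellulose synthase (Aa_G152760, -1.74) and a leucine-rich repeat receptor kinase (Aa_G753790, -1.51). Those with a positive value were an F-box and leucine-rich repeat gene (Aa_G271300, 4.28), a DEDDy exonuclease gene (Aa_G40450, 2.42), the B3-domain genes Aa_G469160 (2.06) and Aa_G188800 (1.42), a kinase gene (Aa_G375490, 1.98), a MYB-like gene (Aa_G698040, 1.59), a gene described as crinkler (Aa_G265320, 1.41) and a leucine-rich repeat receptor kinase (Aa_G650020, 1.25). Why these genes changed was not tested.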

How the results depend on the processing

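The count of genes called at stage 4 moved with the fit, with more calls lower than higher in buds in each. DESeq2 called 1140 (442 higher, 698 lower) and the 6 stage 4 libraries alone 1465 (620 and 845). RLE factors, no filter on low counts, non-robust estimates and limma on TPM gave 239 to 292 higher and 384 to 467 lower. Leaving out 1 library gave 373 to 590 calls, 122 to 231 higher and 217 to 413 lower. Without bud replicate 1 these were 122 and 255, without bud replicate 2 156 and 217, without apex replicate 1 177 and 413, without apex replicate 2 168 and 269, and without apex replicate 3 140 and 243; the cause was not tested. For the change against stages 1 to 3, leaving out 1 library gave 2274 (without bud replicate 2) to 3008 more positive genes.

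Whether replicate numbers pair the samples is not given in the labels, and groups of 3 libraries are too small to decide it. Same-numbered buds and apices deviated with correlations of -0.13, -0.05 and 0.27, and those of other numbers with -0.23 to 0.26. Not every library correlated best with its own number. With the replicate block 292 genes were called higher and 506 lower, and in the 6 libraries alone with the replicate block 964 and 1353 (2317 in all).

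Of 140 named genes that were called, 62 kept the call in every alternative and 0 changed sign while called. The number lost was 42, 43 and 30 without bud replicates 1, 2 and 3 and 30, 33 and 36 without apex replicates 1, 2 and 3. It was 16 with log2(TPM + 1), 15 in the 6 libraries alone, 12 with the block as well, 10 with log2(TPM + 0.1), 9 with no filter, 3 with the block over all libraries, 1 with DESeq2 and 0 with RLE factors or non-robust estimates. Of 33 named genes not called, 14 were called in at least 1 alternative. Genes with few reads, such as those at a mean near 1 CPM, have the widest errors. No batch is given in the labels, and a stage 4 harvest batch cannot be told apart from the stage.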
